A study of Rattus norvegicus albus with 6 samples.

Results

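Genes of Wnt feedback and TCF/LEF control, 10 in all, were followed in rat hepatic stellate cells treated with 3 blockers of canonical Wnt signalling. The genes are Axin2, Nkd1, Nkd2, Notum, Rnf43, Lgr5, Tcf7, Lef1, Tnfrsf19 and Bambi. They were found by their exact symbol in the probe annotation, which gave 1 probe set for each of the 10, out of 14322 named genes on the array. Stellate cells are the retinoid-storing cells of the liver that become matrix-producing myofibroblasts in fibrosis. The cells were primary cultures from rats (labelled Rattus norvegicus albus), activated for 7 days on plastic in low glucose medium with 10% serum, a state that all 6 groups share. The Ad.DKK-1 group was infected for 24 h with an adenovirus carrying DKK-1, and the Ad.GFP group with a virus carrying green fluorescent protein, both at a multiplicity of infection of 200 in 5% serum and with a further 24 h free of serum. The ICG-001 group received 10 µM of that compound for 24 h in medium lacking serum, and its control received the vehicle. The FJ9 group received 200 µM of FJ9 for the same time and in the same medium, and again had a vehicle control of its own. Each group was 1 array of RNA pooled over 3 to 4 rats. No difference below therefore has a replicate, an error or a p-value. The sources used here state neither the age of the animals nor what the vehicles were.

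In canonical Wnt signalling a Wnt ligand joins a Frizzled receptor to the co-receptor LRP5 or LRP6, Dishevelled is drawn to the membrane, and the destruction complex built on Axin and APC stops marking β-catenin for degradation. β-catenin then binds TCF/LEF proteins on DNA and brings in coactivators such as CBP. Several of the genes switched on in this way act back on the pathway, so that their RNA is widely used as a readout of its activity. DKK-1 acts at LRP5 and LRP6, FJ9 at the contact between Frizzled and Dishevelled, and ICG-001 at the contact between β-catenin and CBP.

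All values are log2 levels as deposited, and a difference is the treated array minus its own control. A gene was counted as higher or lower when it lay at least 1.5-fold (0.585 on the log2 scale) from its control, a limit of size and not a test. The array medians lay between 7.01 and 7.28. A level filter set at 6.39, the lowest 30% of gene means, was passed by 7 of the 10 genes, while Rnf43, Lgr5 and Lef1 lay under it. Levels of different probe sets cannot be set against each other, so each gene is compared with itself across arrays. Of 16 measured stellate and myofibroblast markers, 14 passed the filter. The median level of all 16 was 10.6 on Ad.DKK-1 against 11.9 on Ad.GFP. It was 11.3 on ICG-001 against 11.9 on its vehicle, and 10.3 on FJ9 against 11.3 on its vehicle. With each marker compared with itself, the median difference of the 16 was smaller, at −0.75 under Ad.DKK-1, −0.25 with ICG-001 and −0.51 with FJ9. In that order 10, 4 and 8 of the 16 were lower, beside 22.6%, 16.3% and 12.3% of all named genes. Of the 16, 0 were higher, beside 14.5%, 10.3% and 10.6% of all named genes. Of 8 macrophage markers, 3 passed (Cd68, Csf1r and Cd14), whereas the Kupffer cell marker Clec4f had a mean of 5.68 and Adgre1 of 5.05. The log2 of the summed level of all 8, in which Cd14 weighs most, was lower on all 3 treated arrays. It was 11.01 against 11.98 for Ad.DKK-1, 10.54 against 11.53 for ICG-001 and 10.45 against 11.61 for FJ9. Gene by gene, 6 of the 8 were lower under Ad.DKK-1, 6 with ICG-001 and 3 with FJ9, and 0 were higher, beside the same shares of all named genes. The positive differences were those of Clec4f under Ad.DKK-1 (0.40) and with FJ9 (0.23), and of Cd163 with FJ9 (0.21). The summed level of both mesothelial markers, Wt1 and Msln, was lower as well. It was 8.12 against 9.51 for Ad.DKK-1, 8.47 against 9.67 for ICG-001 and 8.87 against 9.57 for FJ9. Wt1 differed by −1.77, −1.44 and −0.91 in that order. Msln differed by −0.12, −0.58 and −0.09, so that Wt1 alone was past the limit. Hepatocyte markers had a median mean level of 6.06, with albumin at 6.18. The part of these shifts in the results was not tested, and in such bulk samples fewer cells of a type and less RNA per cell cannot be told apart.

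The 10 genes did not move as a block. Under Ad.DKK-1, 5 were lower (Axin2, Nkd1, Notum, Lgr5 and Tcf7) and 2 higher (Bambi and Lef1), where 22.6% of all named genes were lower and 14.5% higher, 37.1% in all (35.2% of those past the level filter). With median centring, quantile normalization or loess correction of the arrays, 2 members were lower and 2 higher. The counts over the 10025 genes past the filter changed as well. There 1681 to 1893 were then lower and 1528 to 1874 higher, against 2082 and 1449 as deposited. With ICG-001, 4 were lower (Nkd1, Rnf43, Lef1 and Tnfrsf19) and 1 higher (Nkd2), against 16.3% and 10.3% of all named genes, 26.7% in all (25.7% past the filter). With FJ9, 2 were lower (Axin2 and Nkd2) and 2 higher (Notum and Bambi), against 12.3% and 10.6% of all named genes, 22.9% in all (26.4% past the filter). Between the vehicle arrays Rnf43 alone was lower and 0 were higher, against 7.84% and 2.86% of all named genes, 10.7% in all (7.64% past the filter). The median difference of the 10 genes was −0.35 under Ad.DKK-1, −0.34 with ICG-001 and −0.16 with FJ9, beside −0.09, −0.08 and 0.02 over all named genes, and it was −0.25 between the vehicle arrays beside −0.02 over all named genes. Against the other vehicle the median became 0.0115 with ICG-001 and −0.43 with FJ9, so the order of the compounds turned. None of the 10 was past the limit in all 3 treatments, 6 were in 2 treatments and 4 in 1, where 21% of all named genes were past it in 2 or more. Of the 6, Axin2 and Nkd1 were lower in both, Bambi was higher in both, and Nkd2, Notum and Lef1 were higher in one and lower in the other, as were 4.01% of all named genes in any pair of treatments. The call of Nkd2 with ICG-001 and both calls of Notum ended under other scalings or against the other vehicle, while that of Nkd2 with FJ9 held. Those of Lef1 held too, but its treated arrays lay inside the span of the controls.

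**Figure D1:**
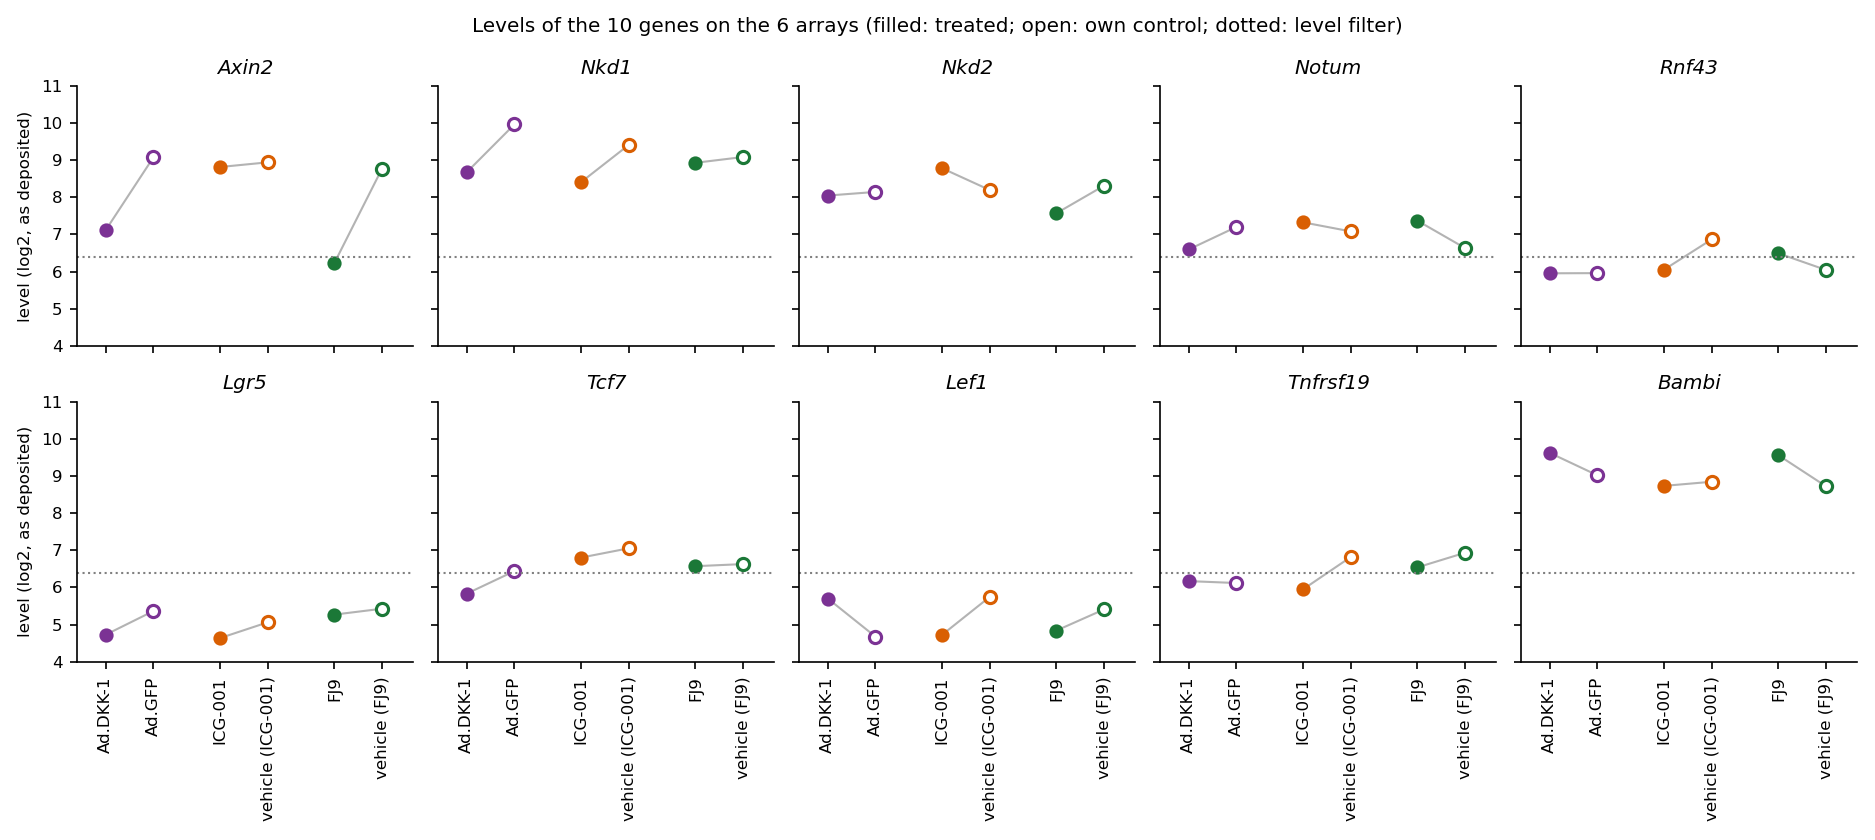
Log2 level of each of the 10 genes on the 6 arrays, as deposited, with 1 point per array, filled for a treated array and open for its own control, joined in pairs; the dotted line is the level filter at 6.39. Axin2 is low on the Ad.DKK-1 and FJ9 arrays alone (7.12 and 6.23). Nkd1 lies under all 3 controls on all 3 treated arrays, by the least on FJ9 (0.16). Lgr5 and Lef1 lie under the filter on every array.

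Axin2 encodes a scaffold of the destruction complex that Wnt signalling itself induces, and it had the widest range of the 10 genes over the 6 arrays, 2.85. It read 7.12 on Ad.DKK-1 and 9.08 on Ad.GFP. It read 8.82 on ICG-001 and 8.94 on the vehicle for ICG-001. It read 6.23 on FJ9 and 8.77 on the vehicle for FJ9. The 3 control arrays and the ICG-001 array thus lay close together, with the controls spanning 0.31, and the Ad.DKK-1 and FJ9 arrays stood well below them. The difference was −1.96 under Ad.DKK-1, a level 3.88-fold lower, which ranked Axin2 as the 92nd lowest of 10025 genes past the filter. With FJ9 it was −2.54, 5.82-fold lower and the 44th lowest, and only 0.579% of genes lay as far from zero. With ICG-001 it was −0.13, a size that 81.9% of genes reached. The FJ9 difference minus the ICG-001 difference was −2.41 and the Ad.DKK-1 difference minus the ICG-001 difference −1.83, and neither has an error.

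Nkd1 and Nkd2 encode the Naked cuticle proteins, which bind Dishevelled and dampen the signal. Nkd1 read 8.68 on Ad.DKK-1 and 9.97 on Ad.GFP, 8.41 on ICG-001 and 9.41 on its vehicle, and 8.93 on FJ9 and 9.09 on its vehicle. All 3 treated arrays lay below all 3 controls, but the FJ9 array by only 0.16. The differences were −1.29 (2.44-fold lower), −1.0025 (2.00-fold lower) and −0.16 in that order. Nkd1 thus had its larger differences with Ad.DKK-1 and ICG-001, whereas Axin2 had them with Ad.DKK-1 and FJ9. The controls themselves spanned 0.88 for Nkd1, with Ad.GFP highest, so the FJ9 difference was smaller than the spread of the controls and the other differences were larger. For ICG-001 this held against its own vehicle alone. Its difference was −0.68 against the other vehicle and −0.84 against the mean of both, and FJ9 differed by −0.48 against the other vehicle.

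Nkd2 showed another order again. It read 8.05 on Ad.DKK-1 and 8.15 on Ad.GFP, 8.78 on ICG-001 and 8.20 on its vehicle, and 7.57 on FJ9 and 8.31 on its vehicle. The controls spanned 0.17, the narrowest span of the 10 genes. The ICG-001 array was above them all and the FJ9 array below them all. The differences were −0.10, 0.59 (1.501-fold, just past the limit) and −0.74 (1.67-fold lower). The call with ICG-001 ended with quantile normalization (0.57), with loess correction (0.56) and against the other vehicle (0.47), while its sign stayed positive in each of these.

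Notum, Rnf43 and Lgr5 act on Wnt proteins or their receptors at the cell surface. Notum is a secreted enzyme that strips the lipid from Wnt ligands. It read 6.60 on Ad.DKK-1 and 7.20 on Ad.GFP, 7.33 on ICG-001 and 7.08 on its vehicle, and 7.37 on FJ9 and 6.63 on its vehicle. The Ad.DKK-1 array lay 0.04 below the lowest control and the compounds' arrays 0.12 and 0.17 above the highest, in the same order as given. The differences were −0.61, 0.24 and 0.74. The Ad.DKK-1 call ended under each of the 3 other scalings (−0.51 to −0.44). The FJ9 call ended against the other vehicle (0.29), since Notum differed by −0.45 between the vehicle arrays.

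Rnf43 encodes a ubiquitin ligase that removes Frizzled from the surface, and Lgr5 encodes a receptor for R-spondins, which hold that ligase back. Both had a mean level under the level filter. The standard deviation of the differences of genes under the filter was 0.71, 0.50 and 0.44 for Ad.DKK-1, ICG-001 and FJ9. Past the filter it was 0.68, 0.56 and 0.63 in the same order. Rnf43 read 5.95 on Ad.DKK-1 and 5.96 on Ad.GFP, 6.05 on ICG-001 and 6.87 on its vehicle, and 6.49 on FJ9 and 6.04 on its vehicle. Its highest value was thus on 1 of the vehicle arrays. The ICG-001 difference of −0.81 became 0.01 against the other vehicle, and the vehicle arrays themselves differed by −0.83. Lgr5 read 4.73 on Ad.DKK-1 and 5.37 on Ad.GFP, 4.64 on ICG-001 and 5.06 on its vehicle, and 5.27 on FJ9 and 5.43 on its vehicle. All its differences were negative (−0.64, −0.42 and −0.16), and the Ad.DKK-1 call ended under each of the other scalings (−0.54 to −0.49). Of the genes under the filter, a background chosen after seeing the data, 37.2% lay as far from zero as Lgr5 did under Ad.DKK-1.

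Tcf7 and Lef1 encode DNA-binding partners of β-catenin whose own genes are targets of the pathway. Tcf7 read 5.84 on Ad.DKK-1 and 6.44 on Ad.GFP, 6.81 on ICG-001 and 7.06 on its vehicle, and 6.57 on FJ9 and 6.63 on its vehicle. Only the Ad.DKK-1 array fell outside the span of the controls, and its difference of −0.61 was no larger than that span, 0.61. The ICG-001 difference was −0.25 and the FJ9 difference −0.06, and the Ad.DKK-1 call ended under each of the other scalings (−0.51 to −0.42). Lef1 read 5.70 on Ad.DKK-1 and 4.67 on Ad.GFP, 4.73 on ICG-001 and 5.75 on its vehicle, and 4.84 on FJ9 and 5.41 on its vehicle. Its differences of 1.03, −1.02 and −0.57 went in both directions. All 3 treated arrays nonetheless lay inside the span of the controls, which was 1.07 and the widest of the 10 genes, because Ad.GFP was the lowest of the 6 arrays and the vehicle for ICG-001 the highest. Lef1 sat near the floor of the arrays, with a lower mean level than all but 6.40% of named genes.

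Tnfrsf19 encodes TROY, a member of the TNF receptor family that marks stem cells together with Lgr5 in mouse intestine, and Bambi encodes a receptor without a kinase that damps TGF-β signalling and is known for this in mouse stellate cells. Tnfrsf19 read 6.17 on Ad.DKK-1 and 6.12 on Ad.GFP, 5.95 on ICG-001 and 6.82 on its vehicle, and 6.54 on FJ9 and 6.94 on its vehicle. The ICG-001 array was the lowest of the 6, with a difference of −0.87 (1.83-fold lower), beside 0.05 under Ad.DKK-1 and −0.39 with FJ9. That difference held against the other vehicle (−0.98) and was barely past the limit with loess correction (−0.604), but both adenovirus arrays lay nearly as low as the ICG-001 array. The mean level of Tnfrsf19, 6.42, was just past the level filter of 6.39, and the Ad.DKK-1, Ad.GFP and ICG-001 arrays read under it.

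Bambi was the one gene of the 10 that was higher in more than 1 treatment and lower in none. It read 9.62 on Ad.DKK-1 and 9.02 on Ad.GFP, 8.74 on ICG-001 and 8.85 on its vehicle, and 9.56 on FJ9 and 8.72 on its vehicle. The Ad.DKK-1 and FJ9 arrays stood above the other 4, which spanned 8.72 to 9.02. The differences were 0.60 (1.52-fold higher), −0.11 and 0.84 (1.79-fold higher). Under Ad.DKK-1 the difference ranged from 0.59 to 0.70 over the other scalings, so it stayed past the limit, but 33.6% of genes past the filter lay as far from zero. With FJ9 that share was 13.1%. Axin2 and Bambi thus stood apart from their controls on the same 2 treated arrays, in opposite directions.

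**Figure D2:**
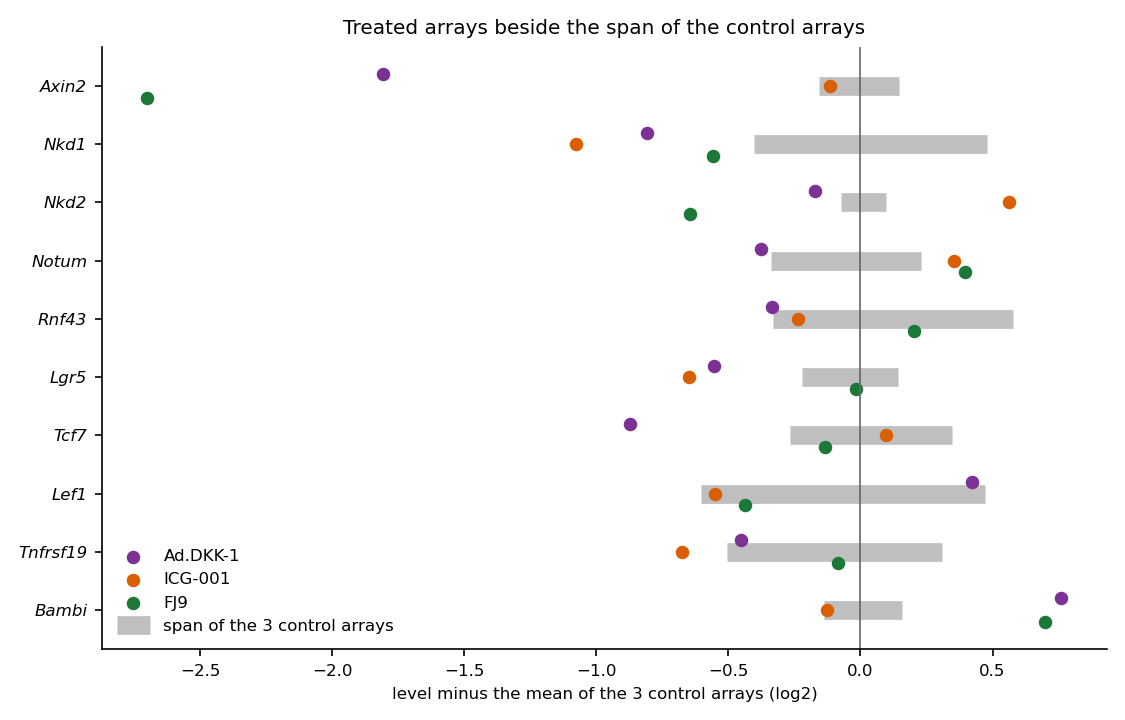
Level of each gene on the 3 treated arrays (points) minus the mean of the 3 control arrays, on the log2 scale; grey bars span the lowest to the highest control array. Axin2 with Ad.DKK-1 and FJ9 lies 1.65 and 2.54 below the lowest control, Bambi on the same arrays 0.60 and 0.54 above the highest, and all 3 points of Lef1 lie inside a bar of 1.07.

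The 3 control arrays gave a measure of how far cultures without a Wnt blocker can differ, although Ad.GFP also carries a virus and a different serum schedule. A treated array outside their span was common, at 74% of all named genes for Ad.DKK-1, 60.5% for ICG-001 and 61.6% for FJ9. It was found for 8, 5 and 5 of the 10 genes in that order, which is near those shares and sets the 10 genes apart in no treatment. How many named genes had all 3 treated arrays on the same side of the controls, as Nkd1 did, was not counted. At least 1 difference from the own control was larger than the span of the controls for 7 of the 10 genes, namely all but Rnf43, Tcf7 and Lef1, and for 70.2% of all named genes. Ad.GFP read above both vehicle arrays for Axin2 (by 0.14 and 0.31), Nkd1 (by 0.55 and 0.88), Notum (by 0.12 and 0.57) and Bambi (by 0.17 and 0.30). It read below both for Tnfrsf19 (−0.70 and −0.82), Tcf7 (−0.61 and −0.19) and Lef1 (−1.07 and −0.73), where the first value is against the vehicle for ICG-001.

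**Figure D3:**
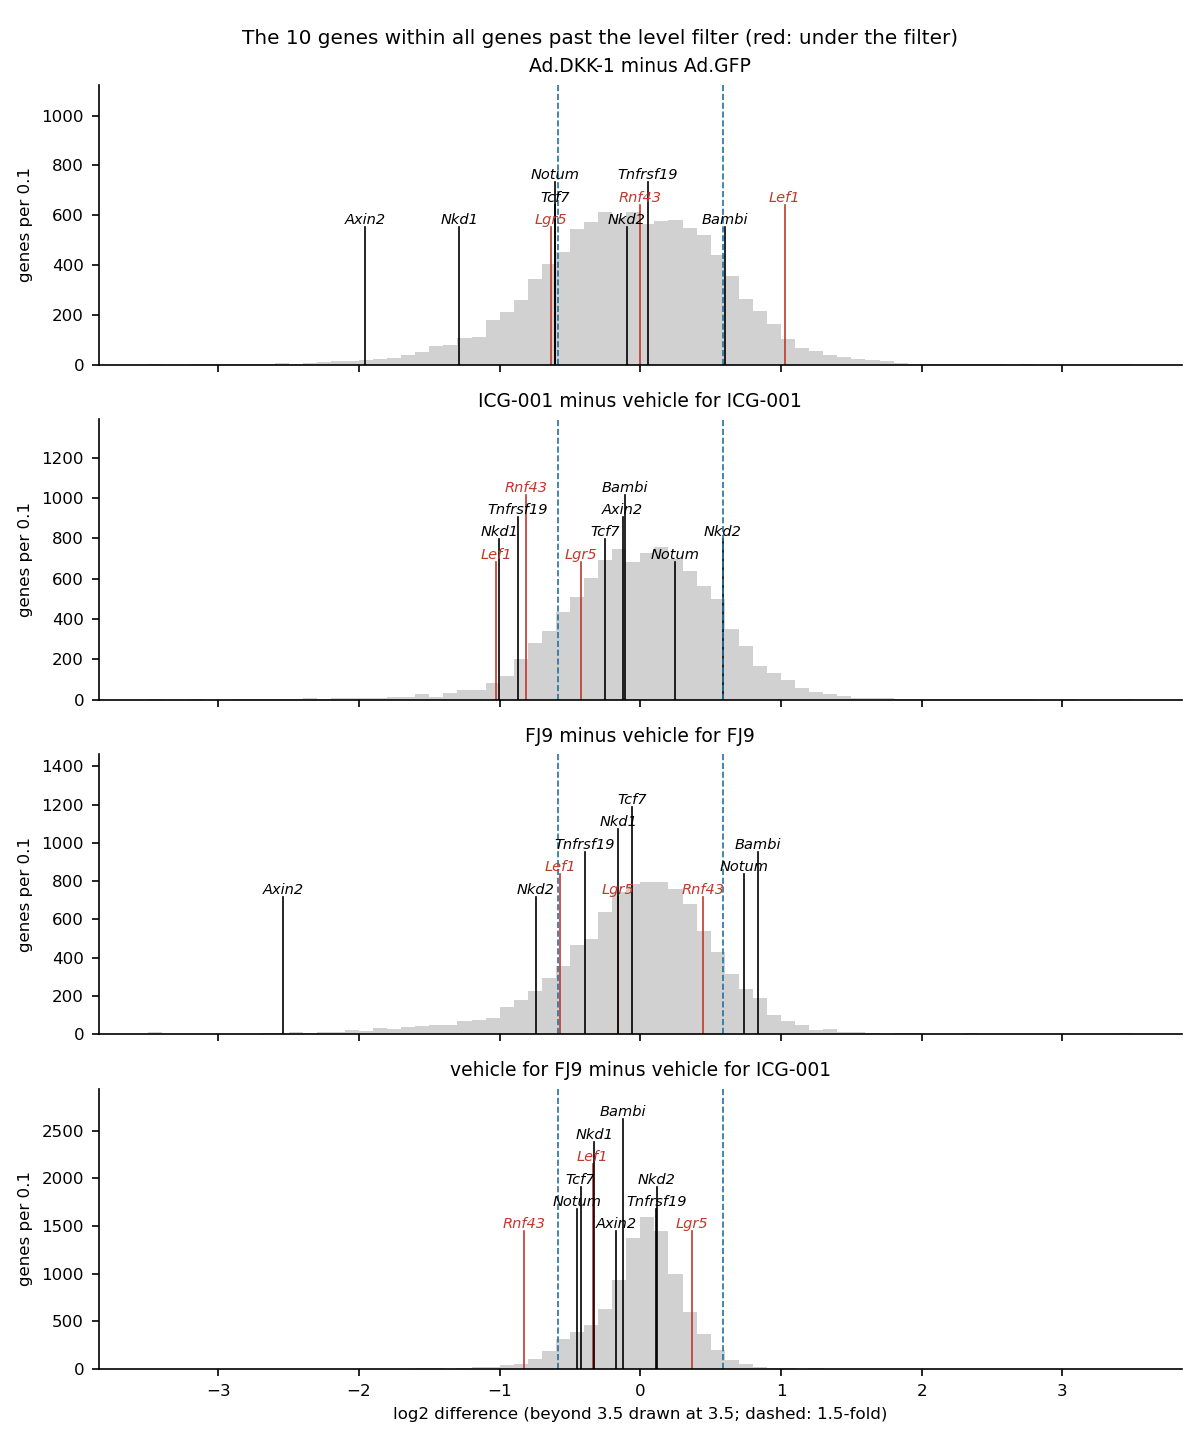
Histograms of the log2 differences of the 10025 genes past the level filter in the 3 treatments and between the vehicle arrays, in bins of 0.1, with each of the 10 genes drawn as a line (red where it lies under the filter) and the 1.5-fold limits dashed. Axin2 lies in the far lower tail under Ad.DKK-1 (−1.96) and with FJ9 (−2.54), while most lines fall within the body of the distribution.

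The vehicle arrays differ in name only by the compound they accompany, so each compound was also set against the other vehicle. For Axin2 this gave 0.04 with ICG-001 and −2.71 with FJ9, close to the values against the own vehicle. For Nkd1 it gave −0.68 and −0.48, for Nkd2 0.47 and −0.62, and for Bambi 0.01 and 0.71, in the same order. For Notum it gave 0.69 and 0.29, which moved the call from FJ9 to ICG-001, and Lgr5 (−0.79 with ICG-001) and Lef1 (−0.91 with FJ9) came past the limit. Of the 16 calls over the 3 treatments, 11 lower and 5 higher, 10 held under the 3 other scalings and, for the compounds, against the other vehicle. These were Axin2, Nkd1, Lef1 and Bambi under Ad.DKK-1, Nkd1, Lef1 and Tnfrsf19 with ICG-001, and Axin2, Nkd2 and Bambi with FJ9.

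**Figure D4:**
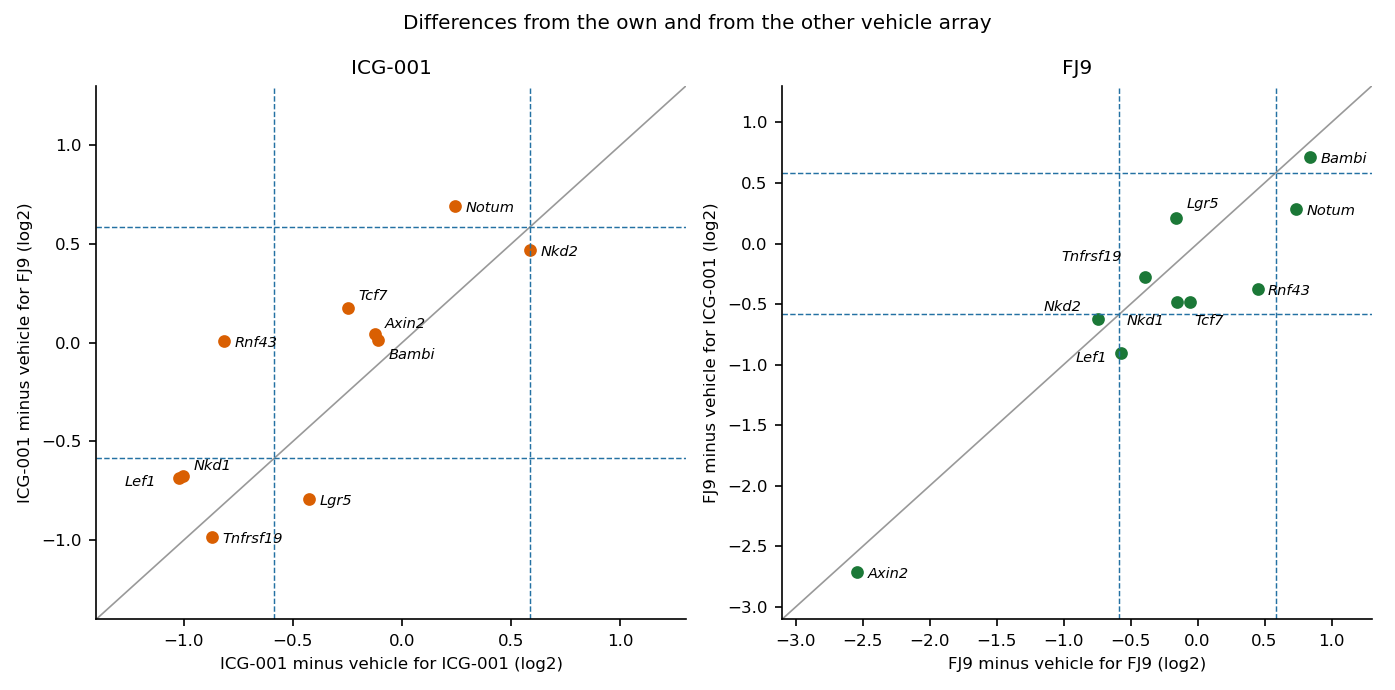
Difference of each gene from the own vehicle array (horizontal) and from the other compound's vehicle array (vertical), on the log2 scale, for ICG-001 and FJ9; the diagonal marks equal values and dashed lines the 1.5-fold limits. Axin2 lies near the diagonal in both panels, whereas Rnf43 lies at −0.81 against its own vehicle and 0.01 against the other with ICG-001, and at 0.45 and −0.38 with FJ9.

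Genes with the most similar pattern were sought by the Euclidean distance over the 3 differences, among genes past the filter. For Axin2 the nearest 5 were Usp18, which removes ISG15 from proteins (distance 0.43), Spon2 (0.47), Scara5 (0.59), the interferon regulator Irf7 (0.64) and follistatin Fst (0.65). Usp18 differed by −1.55, −0.21 and −2.62 under Ad.DKK-1, ICG-001 and FJ9, but unlike Axin2 (−0.17) it also differed by 1.08 between the vehicle arrays. Fst differed by −1.70, −0.12 and −1.95, and by 0.09 between the vehicle arrays. At least as low as Axin2 both under Ad.DKK-1 and with FJ9 were 9 other genes, and 7 of the 9 were lower with ICG-001 too. The other 2, within 1.5-fold with ICG-001, were the interferon-induced Isg15 (−0.43) and Mx2 (−0.36). Their vehicle arrays differed by 0.90 and 2.15, and against the other vehicle they were past the limit with ICG-001 too (−1.33 and −2.51) and less low than Axin2 with FJ9 (−2.20 and −2.02, beside −2.71). The nearest genes to Nkd1 were Racgap1 (0.11), Oprm1 (0.13) and Lpin1 (0.19), and to Nkd2 they were Rbm4 (0.13), Ppil3 (0.15) and Klf6 (0.16). Pink1 (0.11), Carf (0.11) and Zfp703 (0.13) lay nearest to Notum, Pdia4 (0.14), Phactr2 (0.20) and Slc17a9 (0.24) to Lef1, and Acsl4 (0.05), Fgd3 (0.07) and Pabpc6 (0.09) to Bambi. Each distance rests on 3 values a gene, and no spread can be given for it.

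Other genes of the pathway were counted in 4 lists, over all measured members. The destruction complex list was measured for all 12 genes. Axin1, the steadily expressed relative of Axin2, differed by 0.53 under Ad.DKK-1, 0.60 with ICG-001 and 0.87 with FJ9, opposite in sign to Axin2 under Ad.DKK-1 and with FJ9. With ICG-001 the value of Axin2 was near zero and its sign turned with median centring (0.05) and against the other vehicle (0.04). Axin1 read 9.14 on Ad.DKK-1 and 8.61 on Ad.GFP, 8.81 on ICG-001 and 8.21 on its vehicle, and 9.20 on FJ9 and 8.33 on its vehicle. For Axin1 every treated array lay above every control array, a pattern whose share among all named genes was not counted. Its difference stayed positive under the other scalings and vehicle, with a lowest value of 0.48, which ended the call with ICG-001. Amer1, which links APC to the membrane, was lower in all 3 (−1.06, −0.78 and −0.96), although it differed by −0.58 between the vehicle arrays and by −0.19 when ICG-001 was set against the other vehicle. Under Ad.DKK-1, 0 of 12 were higher and 2 lower, the other being Apc2 (−1.26), where 14.5% of all named genes were higher and 22.6% lower. With ICG-001, 2 were higher (10.3% of all named genes), the other being the kinase Gsk3a (0.60, but 0.54 at the lowest over the other scalings), and 2 lower (16.3%), the other being Apc2 (−0.94). With FJ9, 2 were higher, the other being the kinase Csnk1e (0.77), and Amer1 alone was lower, beside 10.6% and 12.3% of all named genes. The median was −0.13, 0.18 and 0.13 in the same order.

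Of 18 TCF/LEF family members and co-regulators, 15 were measured and 14 passed the filter, all but Sox17. Under Ad.DKK-1, 2 of the 15 were higher, the corepressor Tle1 (1.81) and Pygo2 (0.76), and 4 lower, namely Sox7 (−1.21), Sox17 (−1.15), the repressor Hic1 (−0.99) and Tcf7l1 (−0.65, but −0.56 at the smallest over the other scalings), against 14.5% and 22.6% of all named genes. With ICG-001 the chromatin remodeller Chd8 was higher (0.65), and Sox17 (−0.77) and Tle2 (−0.72) were lower, beside 10.3% and 16.3% of all named genes. Neither of those decreases held against the other vehicle, where Sox17 read 0.16 and Tle2 −0.22. With FJ9 none was higher and 5 were lower, against 10.6% and 12.3% of all named genes. The 5 were Hic1 (−1.57), the β-catenin adaptor Bcl9l (−0.71), Pygo2 (−0.68), Tle5 (−0.67) and Tcf7l1 (−0.65). The last 3 of these calls ended against the other vehicle (−0.502, −0.546 and −0.580). The list medians were −0.29, −0.04 and −0.37 in the order Ad.DKK-1, ICG-001 and FJ9. Of 10 genes of receptor turnover and the R-spondin arm, 6 were measured and 5 passed the filter, all but Rspo1. None was higher in any treatment, where 14.5%, 10.3% and 10.6% of all named genes were higher in the same order. In that order 2, 1 and 2 of the 6 were lower, beside 22.6%, 16.3% and 12.3% of all named genes. The medians were −0.42, −0.17 and −0.27, beside −0.09, −0.08 and 0.02 over all named genes. The ligand Rspo2 (−0.87) and Dvl1 (−0.67, but −0.57 at the smallest over the other scalings) were lower under Ad.DKK-1, the ligand Rspo1 with ICG-001 (−0.98, but −0.08 against the other vehicle), and Dvl1 (−0.63) and Dvl3 (−0.61) with FJ9. Dvl1 and Dvl3 encode Dishevelled proteins, and the FJ9 value of Dvl1 was −0.30 against the other vehicle.

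**Figure D5:**
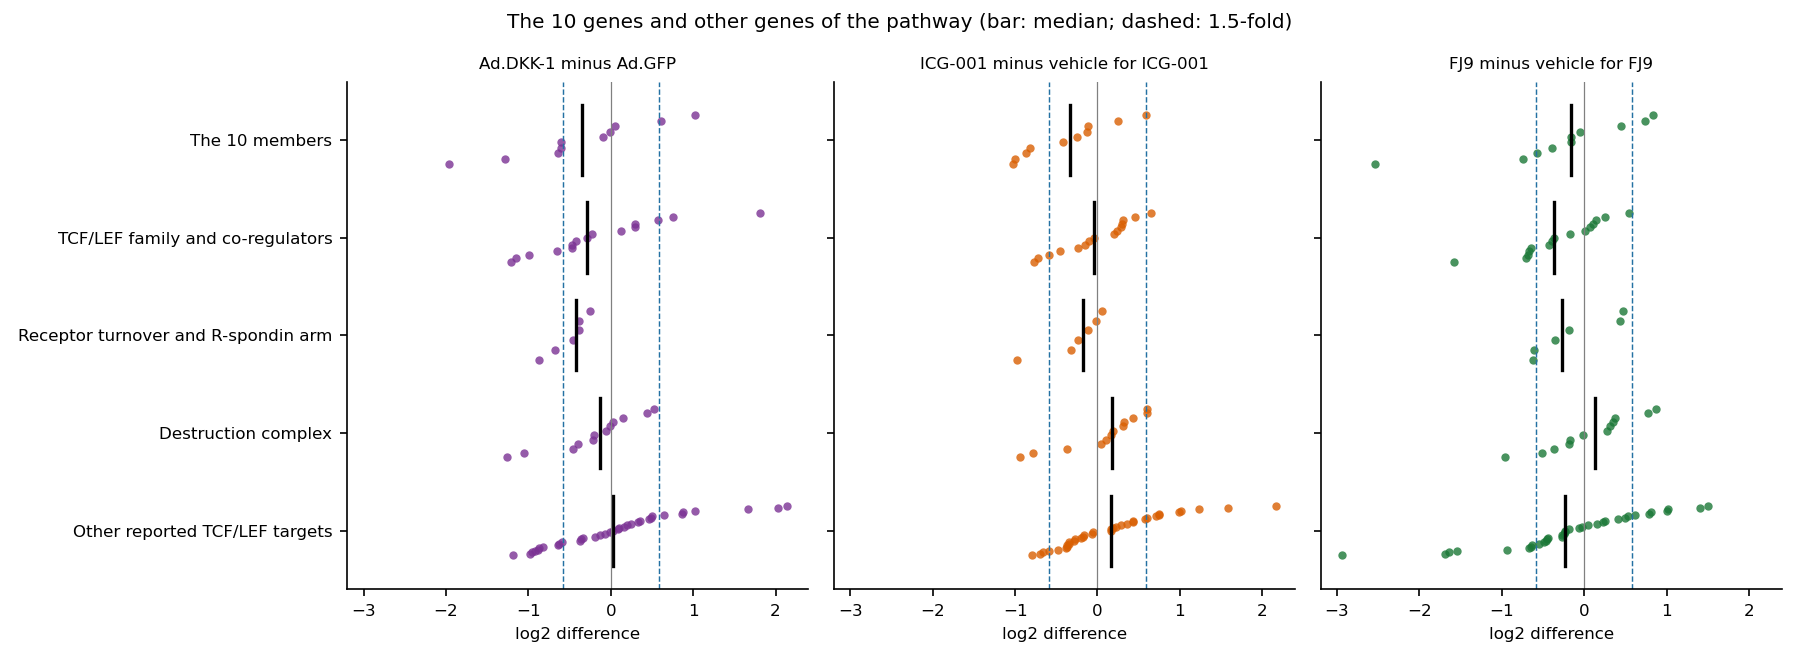
Log2 difference in each treatment for the 10 genes and for the measured genes of 4 lists of the pathway (points, sorted within a row), with the median as a black bar and the 1.5-fold limits dashed. Each list spreads to both sides of zero in at least 1 treatment, and the most negative points are Axin2 among the 10 genes with Ad.DKK-1 and FJ9 and Ccnd1 among the other targets with FJ9 (−2.94).

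Of 44 other reported TCF/LEF targets, 35 were measured and 24 passed the filter, and their medians were 0.03, 0.16 and −0.23 for Ad.DKK-1, ICG-001 and FJ9, on either side of those of all named genes. Under Ad.DKK-1, 7 were higher and 10 lower, where 14.5% of all named genes were higher and 22.6% lower, and the lower calls of Ephb3, Mycn and Prox1 ended under each other scaling. The lower ones were the receptors Ephb2 (−1.18) and Ephb3 (−0.63), the cyclin Ccnd1 (−0.98), Sox4 (−0.96), Dact2 (−0.92), Msx2 (−0.88), Ccn4 (−0.87), Tiam1 (−0.82), Mycn (−0.64) and Prox1 (−0.59). The higher ones were the adhesion molecule Nrcam (2.14), Fosl1 (2.03), Twist1 (1.67), Myc (1.03), Msx1 (0.88), Cldn1 (0.87) and Tbx3 (0.64). Of all these, Nrcam, Msx1, Cldn1, Tbx3, Dact2, Msx2, Mycn and Prox1 had a mean level under the filter. Among the 24 past the filter, 3 were higher and 6 lower. With ICG-001, 9 were higher, led by the growth factor receptor Met (2.17), and 4 lower, beside 10.3% and 16.3% of all named genes. The others higher were Cd44 (1.58), the HLH inhibitor Id2 (1.23), Fosl1 (1.02), Jun (0.99), Myc (0.75), Ccn5 (0.74), Twist1 (0.71) and Nrcam (0.60), and the lower ones were Dkk4 (−0.80), Tbx3 (−0.70), Cldn1 (−0.66) and Ppard (−0.59). All 4 lower calls ended under another scaling, that of Tbx3 also against the other vehicle (−0.16), where the calls of Fosl1 (0.55) and Twist1 (−0.10) ended as well. Nrcam, Tbx3 and Cldn1 lay under the filter, and among the 24 past it 8 were higher and 2 lower with ICG-001.

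With FJ9, 7 of the 35 other targets were higher and 8 lower, beside 10.6% and 12.3% of all named genes. Against the other vehicle the calls of Ccn4 and Prox1 (−0.27) ended, and that of Vegfa ended under another scaling (0.578). The lower ones were Ccnd1 (−2.94), Ccn4 (−1.69), the pseudokinase Trib2 (−1.64), Ephb2 (−1.55), Ccn5 (−0.94), the urokinase receptor Plaur (−0.67), Prox1 (−0.64) and Ephb3 (−0.64). The higher ones were Nrcam (1.4965), the Wnt antagonist Wif1 (1.40), Fosl1 (1.01), Sox4 (1.01), Myc (0.81), Msx1 (0.79) and Vegfa (0.61). Of these, Nrcam, Msx1 and Prox1 lay under the level filter, and among the 24 past it 5 were higher and 7 lower. Ephb2, Ephb3, Ccnd1 and Ccn4 shared with Axin2 a call of lower under Ad.DKK-1 and with FJ9 and a value within 1.5-fold with ICG-001 (−0.17, −0.05, −0.18 and −0.48), a pattern found in 3.07% of all named genes. Of the 4, Ccnd1 alone kept it under the other scalings and the other vehicle. The Ad.DKK-1 call of Ephb3 ended under each other scaling (−0.578 to −0.524), Ephb2 was higher with ICG-001 against the other vehicle (0.73), and Ccn4 there read −1.65 with ICG-001 and −0.51 with FJ9. Ephb2 read 8.03 on Ad.DKK-1 and 9.21 on Ad.GFP, 8.77 on ICG-001 and 8.94 on its vehicle, and 6.50 on FJ9 and 8.05 on its vehicle. Its vehicle arrays differed by −0.89 and those of Ccn4 by 1.17, whereas those of Ephb3 differed by −0.03 and those of Ccnd1 by less than 0.01. Over the 4 lists, 22 of 27 calls under Ad.DKK-1, 13 of 21 with ICG-001 and 24 of 25 with FJ9 held under the other scalings. Under those and against the other vehicle, which exists for the compounds alone, 9 of 21 held with ICG-001 and 18 of 25 with FJ9.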

How the data were processed

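The authors deposited 1 table of log2 values with 6 array columns. The submitters' processing notes name RMA and Affymetrix Expression Console; RMA corrects background, normalizes between arrays and summarises the probes of a set. Software versions, the genome build and the reason why array medians still differed were not stated.

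The deposited log2 values were used unchanged. Of 26988 probe sets, 15092 carried 1 gene symbol, 323 several and 11573 none here. RefSeq (GRCr8) served for names alone, with 15062 Entrez matches and 0 changed symbols. The probe set with the highest mean stood for a gene. Genes above the lowest 30% of mean level (6.39) numbered 10025. With 1 array a group there is no test. Members, lists, the likeness rule and limits were chosen with earlier results of these data known. Uncharacterised loci, small RNAs and olfactory or vomeronasal receptors were passed over among nearest genes. Alternatives were median centring, quantile normalization, loess correction (span 0.3), all probe sets averaged, no filter, a 2-fold limit and the other or both vehicles. Counts and loess were tested on simulated data (Python 3.11.15, statsmodels 0.14.6). No sequences were used. With 6 arrays, their number sets the limit of precision.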

Additional observations from a re-analysis of the deposited data

Results flagged for a closer look

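Nkd2, Notum and Lef1 lay past 1.5-fold in opposite directions in different treatments, a pattern found in 4.01% of all named genes, and the difference between treatments was not tested because each rests on 1 array. Nkd2 read 0.59 with ICG-001 and −0.74 with FJ9, and the first call ended with quantile normalization, with loess correction and against the other vehicle. Notum read −0.61 under Ad.DKK-1 and 0.74 with FJ9, and the first call ended under each other scaling and the second against the other vehicle. Lef1 read 1.03 under Ad.DKK-1 and −1.02 with ICG-001, with all its treated arrays inside the span of the controls.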

How the results depend on the processing

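No paired analysis was possible because each group holds 1 array and the labels carry no replicate numbers, and for the same reason no replicate could be left out. The number of arrays, and for Rnf43, Lgr5 and Lef1 a mean level under the filter, limit what the values can show. Of 160 single-gene differences under the other scalings and vehicles, 148 moved by less than the standard deviation of the difference between the vehicle arrays over genes (0.34), 11 moved by more, and 1 that had been past the limit changed sign, Rnf43 with ICG-001 (0.0106 against the other vehicle). Each of the 10 genes has 1 probe set, so averaging probe sets could change none of their values and is not counted here. The causes of the changes below were not tested, except that a 2-fold limit and a rule that adds a condition can only lower a count, and leaving out the filter can only raise one. Under Ad.DKK-1 the 5 lower members became 2 with median centring, 2 with quantile normalization, 2 with loess correction and 2 at the 2-fold limit, and the 2 higher members became 1 at 2-fold and 1 when the treated array also had to lie outside all 3 controls, a rule chosen after seeing the data. With ICG-001 the 1 higher member became 0 with quantile normalization, 0 with loess correction, 0 with the mean of both vehicles and 0 at 2-fold, the 4 lower members became 2 at 2-fold and 2 outside all 3 controls, and the median difference of −0.34 became 0.0115 against the other vehicle. With FJ9 the median of −0.16 became −0.43 against the other vehicle and −0.29 with the mean of both, and the 2 higher members became 1 against the other vehicle, 1 with the mean of both vehicles and 0 at 2-fold, and the 2 lower members became 1 at 2-fold. Between the vehicles the 1 lower member became 0 at 2-fold. Over all genes past the filter, 1449 were higher and 2082 lower under Ad.DKK-1, 1267 and 1314 with ICG-001, 1160 and 1484 with FJ9, and 245 and 521 between the vehicles. At 2-fold these became 400 and 793, 290 and 329, 245 and 601, and 31 and 83. Without the filter, 3236 were lower under Ad.DKK-1 and 2337 with ICG-001, and between the vehicles 410 were higher and 1123 lower. Median centring moved the median of all genes past the filter to 0.18, against 0.01 as deposited, with ICG-001, and to 0.16, against 0.02, between the vehicles, and gave 2218 higher and 754 lower with ICG-001 and 575 and 265 between the vehicles. Quantile normalization gave 457 higher between the vehicles.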
